A study of Mus musculus with 14 samples.

Results

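Among genes expressed in sorted mouse mammary cells, Abca8a, S1pr3, Zeb2, Nr2f1, Gatm and Fgl2 stood high in basal cells that carried the Thy-1 antigen. They were selected on their measured values in the Thy-1+ arrays against the other basal arrays, with their level in luminal cells also in view, and they were 6 of 6044 named genes, read by 8 of 9645 probe sets. RNA came from freshly dissociated mammary glands of virgin female C57BL/6 mice aged 6 to 8 weeks, with no transgene or treatment. Cells were double sorted on CD24, CD49f and Thy-1, with stains for the blood and endothelial antigens CD45, Ter119 and CD31 (the study's methods also list an antibody to CD140α, the product of Pdgfra), and measured on 14 Affymetrix arrays. The basal populations were Thy-1+CD24medCD49fhigh (3 arrays), Thy-1-CD24medCD49fhigh (3 arrays) and CD24medCD49fmed (3 arrays), and the luminal ones were CD24highCD49fmed (3 arrays) and CD24medCD49f-/low (2 arrays). Nothing in the labels ties a replicate to a mouse, so p-values measure only the spread between these arrays, which may be technical.

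The mammary duct has an inner layer of luminal cells and an outer layer of basal cells, most of them contractile myoepithelial cells, and cells that can regrow a gland after transplantation are found in the basal sort. CD24 and the integrin chain CD49f separate the layers. Thy-1, also called CD90, is a lipid-anchored glycoprotein that is also carried by neurons, thymocytes, fibroblasts and other stromal cells. The 6 genes encode a lipid transporter, a lipid receptor, a pair of transcription regulators, an enzyme and a fibrinogen-like protein.

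Every value below is a log2 value set to 0 at the gene's own mean over the 14 arrays. It says how a gene varied across arrays and not how abundant it was, so levels of different genes cannot be compared and a value below 0 is not a lack of RNA. The table held only probe sets that differed at least 4-fold between arrays, so all shares below are shares of variable genes. The sorted layers were checked against marker genes. All 14 basal markers, Krt5 and Krt14 among them, were lower in luminal than in the other basal arrays (limma, adjusted p under 0.05), and all 14 luminal markers were higher. In the Thy-1+ arrays the median of the basal markers was 0.70, 1.77 and 0.80 in replicates 1, 2 and 3, against 0.81 to 2.25 in the 6 arrays of the other basal populations.

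Thy1 itself was not equally high in the arrays sorted for its protein. It stood at 2.00, -0.07 and 3.03 in Thy-1+ replicates 1, 2 and 3, against -0.77, -0.10 and -0.36 in Thy-1- arrays and 0.73, -0.46 and 0.12 in CD24medCD49fmed arrays. Replicate 2 thus fell within the range of the arrays of the other basal populations. The 3 Thy-1+ arrays also differed in their median over all rows, which was -0.74, 0.08 and -0.51, against -0.15 to 0.28 in the other 11 arrays. Values of the 6 genes in Thy-1+ cells are therefore given with and without replicate 2, and the marker and pathway genes with their Thy-1+ arrays or with a range over leaving out each of them.

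Upstream sequence is shown for 3 of the genes, because Zeb2 and Nr2f1 encode DNA-binding proteins whose usual recognition letters can be looked for beside the genes. Zeb2 protein binds CACCT, which reads AGGTG on the other strand. Nr2f1 protein binds repeats of AGGTCA, whose reverse is TGACCT. All 6 genes had a start site in the RefSeq table (GRCm38.p6), 10 start sites in all, and the 250 bases before each were searched on both strands. Capitals mark the matches, and the runs read 5′ to 3′ on the gene's strand.
Gatm, chr2:122611278-122611527, minus strand: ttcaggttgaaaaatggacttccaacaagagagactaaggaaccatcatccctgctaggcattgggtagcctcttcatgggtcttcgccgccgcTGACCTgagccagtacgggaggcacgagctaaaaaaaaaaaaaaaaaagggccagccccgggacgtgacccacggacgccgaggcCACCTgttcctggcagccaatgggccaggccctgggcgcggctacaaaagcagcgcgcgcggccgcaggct
Zeb2, start site 1 of 4, chr2:45117443-45117692, minus strand: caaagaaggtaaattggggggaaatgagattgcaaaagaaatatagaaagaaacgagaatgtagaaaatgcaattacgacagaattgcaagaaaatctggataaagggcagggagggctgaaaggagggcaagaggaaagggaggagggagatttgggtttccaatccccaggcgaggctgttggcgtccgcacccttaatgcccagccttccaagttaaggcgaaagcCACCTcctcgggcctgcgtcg
Abca8a, chr11:110095938-110096187, minus strand: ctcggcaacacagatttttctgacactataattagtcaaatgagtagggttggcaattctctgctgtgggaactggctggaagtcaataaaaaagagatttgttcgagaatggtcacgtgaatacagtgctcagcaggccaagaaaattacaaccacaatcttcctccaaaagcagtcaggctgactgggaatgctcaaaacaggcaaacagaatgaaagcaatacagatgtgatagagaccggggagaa
CACCT was found once before Gatm and once before each of start sites 1, 2 and 3 of Zeb2, and 46.0% of 32851 start sites of all genes held it in a window of this length. AGGTCA was found once, before Gatm, and 14.0% of all start sites held it. The Zeb2 windows of start sites 2 and 3 overlap, but their matches lie at different places. Neither run of letters was in the windows of Abca8a, S1pr3 (chr13:51408368-51408617, plus strand), Fgl2 (chr5:21372423-21372672, plus strand) or the 2 start sites of Nr2f1. These matches are letters in a sequence, not measured binding sites.

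Abca8a encodes a member of the ABCA family of membrane transporters, which move lipids. It read 3.81, 1.37 and 4.49 in Thy-1+ replicates 1, 2 and 3, against -1.65, 0.92 and 0.99 in Thy-1- arrays and -0.51, 0.11 and 0.33 in CD24medCD49fmed arrays. Luminal values were -2.10, -2.34 and -1.86 in CD24highCD49fmed cells and -2.06 and -1.50 in CD24medCD49f-/low cells. All 3 Thy-1+ arrays lay above all 11 others, although replicate 2 cleared the highest of the other basal arrays by only 0.38. The mean of the Thy-1+ arrays was 3.19 above that of the 6 other basal arrays, a 9.15-fold difference. It was 4.12 with replicates 1 and 3 alone and 1.34 for replicate 2 alone.

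S1pr3 encodes a G protein-coupled receptor for sphingosine 1-phosphate, a signalling lipid in blood and tissues. It read 3.58, 0.92 and 2.96 in the Thy-1+ arrays, against -0.74, 0.07 and 0.46 in Thy-1- arrays and 0.39, 0.14 and 0.06 in CD24medCD49fmed arrays. Luminal cells had -1.66, -1.60 and -1.33 (CD24highCD49fmed) and -1.67 and -1.58 (CD24medCD49f-/low). Here too the Thy-1+ arrays lay above all others, with a gap of 0.46 between replicate 2 and the highest other basal array. The difference of means from the other basal arrays was 2.42 (5.37-fold), with 3.21 for replicates 1 and 3 and 0.86 for replicate 2. Both probe sets of S1pr3 kept this order of groups, at 2.03 and 2.82.

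**Figure D1:**
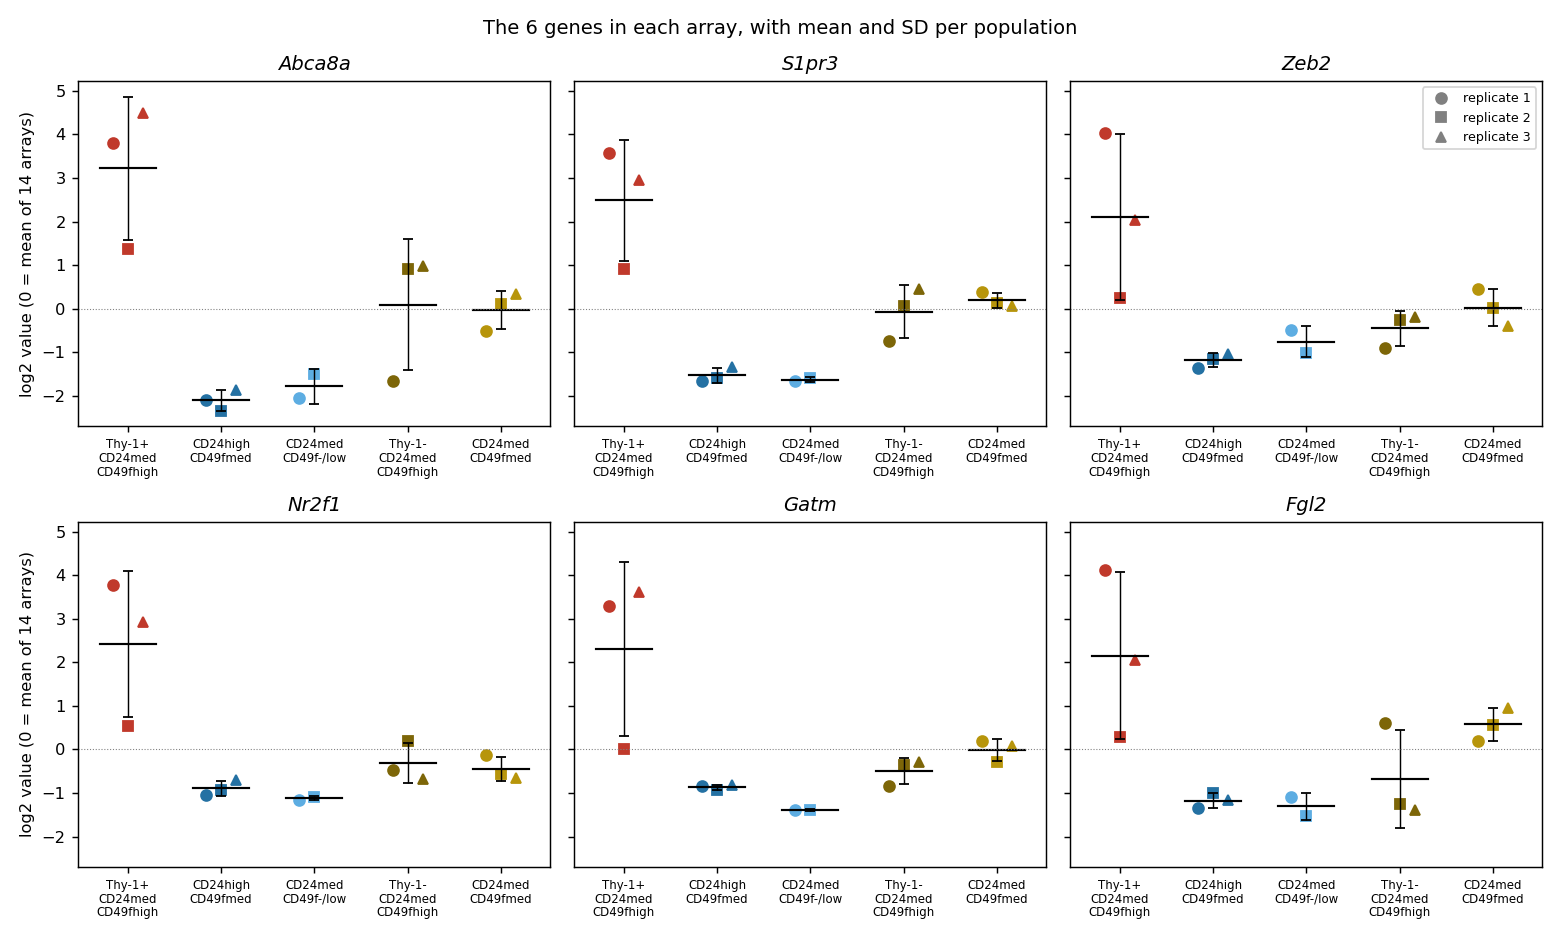
The plot shows the log2 value of each of the 6 genes in every array (points, by replicate) with the mean and SD of each population (lines), where 0 is the gene's mean over 14 arrays. In every panel Thy-1+ replicate 2 is the lowest of the Thy-1+ arrays, between 0.00 for Gatm and 1.37 for Abca8a.

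Zeb2 encodes a zinc finger repressor known from epithelial-mesenchymal transition, in which it turns down E-cadherin, and from myelination by Schwann cells. It read 4.04, 0.25 and 2.03 in the Thy-1+ arrays, against -0.91, -0.25 and -0.18 in Thy-1- arrays and 0.45, 0.02 and -0.39 in CD24medCD49fmed arrays. Luminal values were -1.35, -1.15 and -1.04 in CD24highCD49fmed cells and -0.50 and -1.01 in CD24medCD49f-/low cells. Replicate 2 was below CD24medCD49fmed replicate 1, so the groups overlapped among basal cells. The difference of means was 2.32 (4.98-fold), 3.24 for replicates 1 and 3 and 0.46 for replicate 2.

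The 2 probe sets of Zeb2 disagreed on replicate 2. Probe set 1422748_at gave it 0.83, which was 0.99 above the mean of the other basal arrays and 0.08 above the highest of them. Probe set 1456389_at gave it -0.32, which was -0.06 from that mean. Both probe sets placed replicates 1 and 3 above every other array, at 3.95 and 2.61 for 1422748_at and at 4.12 and 1.44 for 1456389_at.

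**Figure D2:**
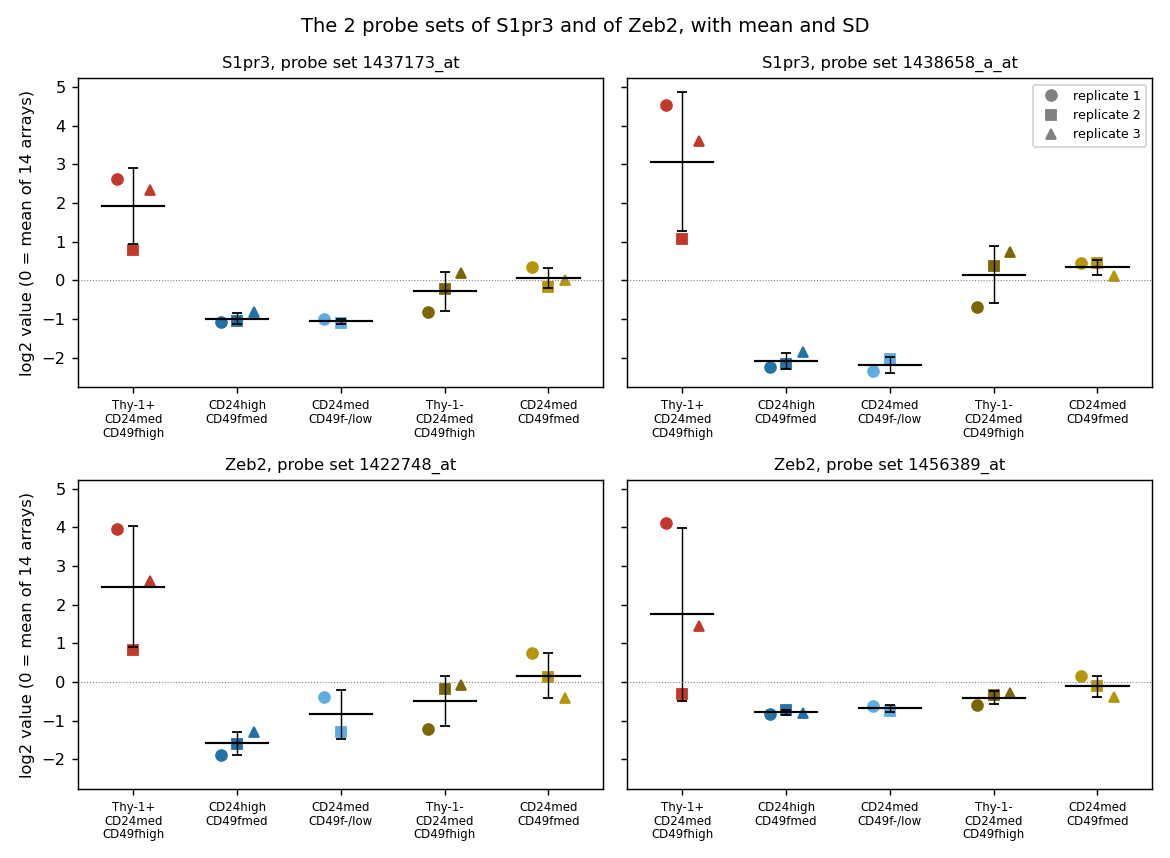
The plot shows the log2 value of each probe set of S1pr3 and Zeb2 in every array (points, by replicate), with the mean and SD of each population. For probe set 1456389_at of Zeb2, Thy-1+ replicate 2 sits at -0.32 among the other basal arrays, while for both probe sets of S1pr3 it sits above them, at 0.79 and 1.06.

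Nr2f1 encodes COUP-TFI, an orphan nuclear receptor known from development of the nervous system. It read 3.78, 0.54 and 2.92 in the Thy-1+ arrays, against -0.48, 0.20 and -0.68 in Thy-1- arrays and -0.13, -0.57 and -0.65 in CD24medCD49fmed arrays. Luminal cells had -1.05, -0.93 and -0.71 (CD24highCD49fmed) and -1.15 and -1.09 (CD24medCD49f-/low). The Thy-1+ arrays lay above all 11 others, by 0.34 at the narrowest. The difference of means from the other basal arrays was 2.80 (6.96-fold), 3.74 for replicates 1 and 3 and 0.93 for replicate 2.

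Gatm encodes the mitochondrial amidinotransferase of the first step of creatine synthesis. It read 3.30, 0.00 and 3.62 in the Thy-1+ arrays, against -0.85, -0.35 and -0.30 in Thy-1- arrays and 0.20, -0.30 and 0.07 in CD24medCD49fmed arrays. Luminal values were -0.85, -0.93 and -0.82 in CD24highCD49fmed cells and -1.38 and -1.40 in CD24medCD49f-/low cells. Replicate 2 stood below 2 of the 6 other basal arrays, and Gatm had the widest gap between it and the other Thy-1+ arrays. The difference of means was 2.56 (5.89-fold), 3.71 for replicates 1 and 3 and 0.25 for replicate 2.

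Fgl2 encodes a fibrinogen-like protein that is known as a membrane-bound prothrombinase and, in its secreted form, as an effector of regulatory T cells. It read 4.11, 0.28 and 2.05 in the Thy-1+ arrays, against 0.61, -1.25 and -1.39 in Thy-1- arrays and 0.20, 0.56 and 0.96 in CD24medCD49fmed arrays. Luminal cells had -1.34, -1.01 and -1.17 (CD24highCD49fmed) and -1.09 and -1.52 (CD24medCD49f-/low). Replicate 2 lay above only 3 of the 6 other basal arrays, the weakest separation of the 6 genes. The difference of means was 2.20 (4.58-fold), 3.13 for replicates 1 and 3 and 0.33 for replicate 2. Against CD24medCD49fmed cells alone it was 1.57, or 2.5 without replicate 2, while the other 5 genes were 2.08 to 3.25 above those cells, or 3.01 to 4.18 without it.

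Across the 6 genes, all 3 Thy-1+ arrays lay above all 6 other basal arrays for Abca8a, S1pr3 and Nr2f1, as they did for 38 of 7190 rows (0.529%). For the same 3 genes they also lay above the luminal arrays, as in 29 rows (0.403%). Replicates 1 and 3 lay above all 6 for each of the 6 genes and for 521 rows (7.25%), and replicate 2 was the lowest Thy-1+ array in 517 of those 521 rows. Picking rows on replicates 1 and 3 makes replicate 2 likely to be their lowest, so nothing is read from that last count. Differences of 2 log2 or more were found in 14 rows (0.195%), among them all 6 genes, at ranks 2 to 11, or 3 to 11 without replicate 2. The other named genes in those 14 rows were Cdh19 (3.38), which ranked above all 6, Kcna1 (2.28), which ranked above Fgl2, and Kcna2 (2.02), which ranked below it. Cadm4, at 1.98, came next. Without replicate 2 these were 4.54, 3.09, 2.76 and 2.78. The median over the 6 genes was 2.49, while that over all rows was -0.46 (3.48 and -0.71 without replicate 2). Because these values chose the genes, they are a description and carry no test.

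**Figure D3:**
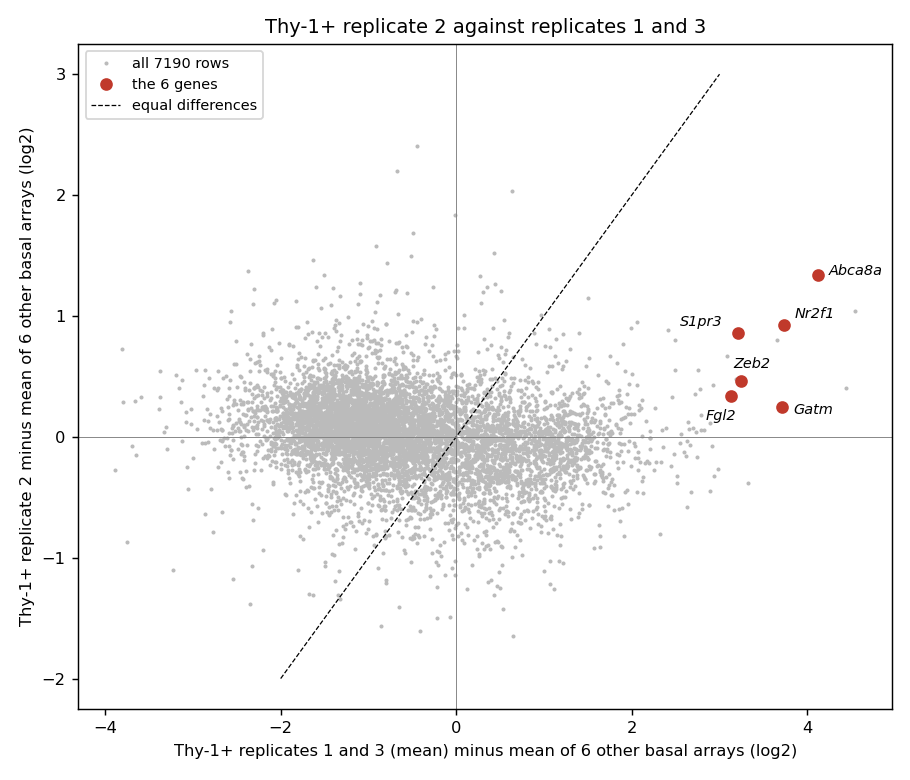
The plot sets, for each of 7190 rows, the difference of Thy-1+ replicate 2 from the mean of 6 other basal arrays (vertical, log2) against that of the mean of Thy-1+ replicates 1 and 3 (horizontal, log2). The 6 genes lie far to the right, at 3.13 to 4.12, and at 0.25 to 1.34 on the vertical axis, below the dashed line of equal differences.

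The 6 genes were also low in luminal cells. That level was among the values on which they were selected, and the other basal arrays were the low side of the choice, so the comparison of luminal with other basal cells is a description and no p is given for it. The filter of the table bears on it too, and on the comparisons within luminal and within other basal cells. Without the Thy-1+ arrays, 4 of the 8 probe sets spanned less than the 2.0 log2 that every row of the table reaches. Among these were the only probe sets of Gatm (-1.40 to 0.20) and Nr2f1 (-1.15 to 0.20), which were in the table only through the cells in which they were high. The same held for probe set 1437173_at of S1pr3 (-1.11 to 0.34) and probe set 1456389_at of Zeb2 (-0.83 to 0.15). In bulk samples such as these, fewer cells of a type and less RNA per cell cannot be told apart.

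Abca8a averaged -1.97 ± 0.31 in luminal arrays and 0.03 ± 0.99 in other basal arrays (SD, n = 5 and 6). S1pr3 averaged -1.57 ± 0.14 in luminal arrays and 0.06 ± 0.43 in other basal arrays, and Fgl2 averaged -1.23 ± 0.21 in luminal arrays and -0.05 ± 1.01 in other basal arrays. These were the widest distances. With populations weighted equally, the difference was -1.97 (SE 0.42) for Abca8a, -1.64 (SE 0.22) for S1pr3 and -1.19 (SE 0.33) for Fgl2.

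The other 3 genes lay closer. Gatm differed by -0.88 (SE 0.18), Zeb2 by -0.76 (SE 0.22) and Nr2f1 by -0.62 (SE 0.20). All luminal arrays lay below all 6 other basal arrays only for S1pr3 and Nr2f1, as they did for 15.9% of rows. For Fgl2 only 1 of 5 luminal arrays did so, since Thy-1- replicates 2 and 3 were as low as luminal cells, at -1.25 and -1.39. All 6 differences were past the limma threshold that 22.5% of rows passed as lower and 28.8% as higher, and Abca8a and S1pr3 were past that of rank products, which 17.4% of rows passed. Because of how the genes were chosen, nothing is read from these counts.

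Between the luminal populations no difference of the 6 genes passed. CD24highCD49fmed minus CD24medCD49f-/low cells gave 0 calls among them by limma, against 5.59% of all rows, and 0 by rank products, against 6.65%. Gatm, Nr2f1, probe set 1437173_at of S1pr3 and probe set 1456389_at of Zeb2 were in the table only through the Thy-1+ arrays. A small spread elsewhere was thus built in for them. The 0 calls are therefore not read as a lack of difference. At an unadjusted p under 0.05 there was 1 of the 6, against 27.0% of rows. That gene was Gatm, at -0.87 ± 0.06 in CD24highCD49fmed and -1.39 ± 0.01 in CD24medCD49f-/low cells (SD, n = 3 and 2), a difference of 0.52 (SE 0.17, limma adjusted p = 0.101). All 3 CD24highCD49fmed values of Gatm lay above both CD24medCD49f-/low values, and all 3 of Zeb2, averaged over its 2 probe sets, lay below both. The share of all rows separated in this way was not counted, so nothing is read from it. By Zeb2 probe set 1456389_at, CD24highCD49fmed replicate 2 (-0.72) lay above CD24medCD49f-/low replicate 2 (-0.74). By 1422748_at, CD24highCD49fmed replicate 3 and CD24medCD49f-/low replicate 2 both read -1.28. Zeb2 went the other way at -0.43 (SE 0.22, limma adjusted p = 0.241), Abca8a was -0.32 (SE 0.24), Nr2f1 was 0.22 (SE 0.19), Fgl2 was 0.13 (SE 0.21) and S1pr3 was 0.09 (SE 0.19).

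Between the other basal populations the values were close for some genes and far apart for Fgl2. Thy-1-CD24medCD49fhigh minus CD24medCD49fmed cells gave 0 calls among all 7190 rows by limma (0.0%). At an unadjusted p under 0.05, 84 rows (1.17%) passed, and Fgl2 was the only one of the 6 genes among them. Fgl2 averaged -0.68 ± 1.12 in Thy-1- cells and 0.57 ± 0.38 in CD24medCD49fmed cells (SD, n = 3 each), a difference of -1.25 (SE 0.52, limma adjusted p = 0.999). Rank products also called Fgl2 (permutation p = 0.00294 for lower, one-sided) and no other of the 6, against 2.24% of rows. That call rests on an unadjusted p under 0.01 in either direction, so nothing is read from it. Thy-1- replicate 1, at 0.61, lay within the CD24medCD49fmed arrays. Gatm was -0.49 (SE 0.31), Zeb2 -0.47 (SE 0.35), S1pr3 -0.27 (SE 0.36), Nr2f1 0.13 (SE 0.34) and Abca8a 0.11 (SE 0.64). The table's filter limits Gatm, Nr2f1 and the same probe sets of S1pr3 and Zeb2 in this comparison in the same way.

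**Figure D4:**
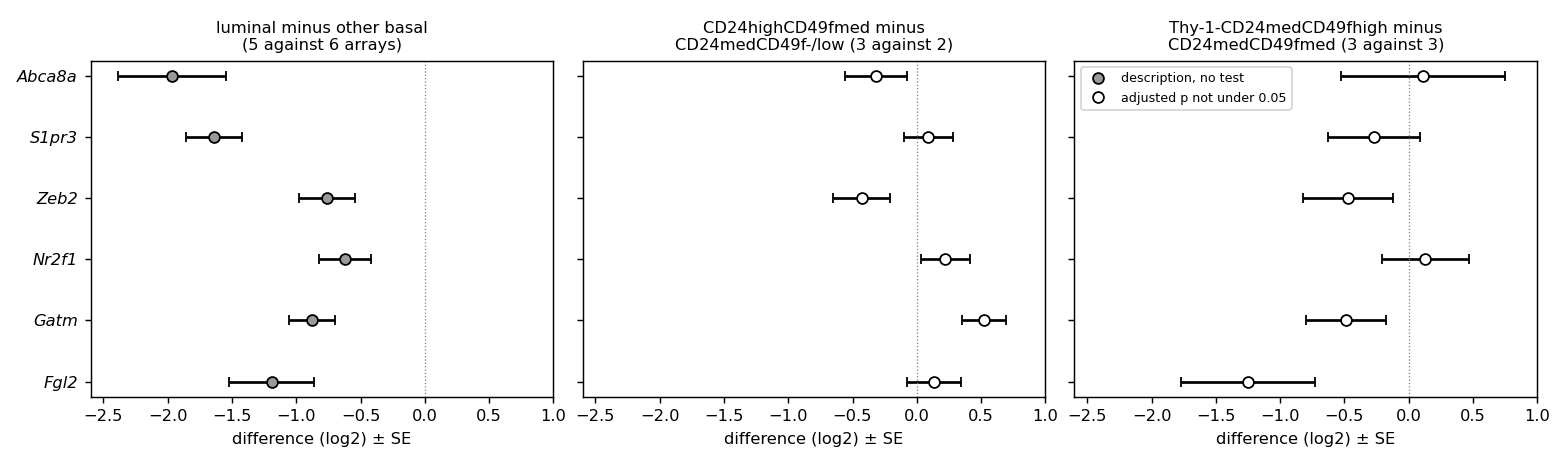
The plot shows the limma difference of each gene (points, log2) with its SE (bars) in 3 comparisons. The 6 grey points of luminal minus other basal cells, a description with no test, lie between -1.97 and -0.62, and the open points of the other comparisons did not reach an adjusted p under 0.05.

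Ordered by population mean, each of the 6 genes was highest in Thy-1+ cells, and the luminal populations took the lowest places in all 6. Thy-1+ means were 3.23 ± 1.64 for Abca8a, 2.49 ± 1.39 for S1pr3, 2.41 ± 1.68 for Nr2f1, 2.31 ± 2.01 for Gatm, 2.15 ± 1.91 for Fgl2 and 2.11 ± 1.89 for Zeb2 (SD, n = 3). The SD in any other population was at most 1.51, for Abca8a in Thy-1- cells, where replicate 1 read -1.65 and the others 0.92 and 0.99. The neighbours in that order below the Thy-1+ cells, Thy-1- and CD24medCD49fmed, did not pass limma's test of their difference for any of the 6 genes, and neither did the luminal populations. Rank products called Fgl2 between the basal ones, as given above. The distance from Thy-1+ to luminal cells ran between 3.08 for Zeb2 and 5.17 for Abca8a, and between 4.0 and 6.09 for the same genes without Thy-1+ replicate 2.

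The genes varied together over the arrays, as the shared Thy-1+ pattern already implies. Pearson's r over the 14 arrays lay between 0.74 (Abca8a and Fgl2) and 0.97 (Abca8a and S1pr3), and over the 9 basal arrays between 0.59 (Abca8a and Fgl2) and 0.97 (S1pr3 and Gatm). All points share the same arrays and the same sorts, so these values are descriptive. Among all named genes, the 5 nearest to each were listed. Kcna1 and Kcna2, which encode voltage-gated potassium channels known from myelinated nerve, were both among the 5 nearest to Abca8a (r = 0.968 and 0.975), S1pr3 (0.967 and 0.966) and Gatm (0.971 and 0.972). Rarres2, which encodes the chemoattractant chemerin, was near S1pr3 (0.973), Nr2f1 (0.953) and Gatm (0.978), and the kinase gene Prkcq was near S1pr3 (0.960), Zeb2 (0.966) and Nr2f1 (0.957).

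Fgl2 kept other company. Its nearest genes over the 14 arrays were Pcyt1b (0.924), of phosphatidylcholine synthesis, Nid2 (0.909), a basement membrane component, Tfpi (0.908), an inhibitor of coagulation, Sox18 (0.903), an endothelial transcription factor, and Stim1 (0.903), a calcium sensor. None of these was among the 5 nearest to another of the 6 genes. Zeb2 was nearest to Aspn (0.974), a matrix protein gene, and Nr2f1 to A830082K12Rik (0.982). Over the 9 basal arrays alone, Abca8a was nearest to Aspa (0.980), which encodes aspartoacylase, S1pr3 to the cadherin gene Cdh19 (0.979) and Gatm to Rarres2 (0.996).

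Markers of other cell types moved with the same arrays. The median of 13 Schwann cell markers, the glia that wrap peripheral nerve fibres, was 1.34, 0.25 and 1.41 in Thy-1+ replicates 1, 2 and 3, against -0.23 to 0.35 in the 6 other basal arrays and -1.11 to -0.70 in luminal arrays. As in each of the 6 genes, replicate 2 was the lowest Thy-1+ array. Of the 13, 11 were above 0 in Thy-1+ minus other basal cells, with a median of 0.83, against 1981 of 7190 rows and a median of -0.46. The median was 0.51 to 1.44 and the count 11 or 12 when single Thy-1+ arrays were left out, the highest median without replicate 2. The marker lists were chosen with earlier results of these data known, and Cdh19 of this list led all rows in this comparison. These counts and medians are therefore a description and not a test. Cdh19 read 4.10, 0.53 and 3.96 and the myelin gene Mbp 2.55, 0.17 and 2.49 in the Thy-1+ arrays, but Sox10, the defining transcription factor of the lineage, read -2.79, 0.54 and 0.10 and was not raised. Basal mammary cells also express Sox10. In luminal cells 8 of the 13 were lower and 2 higher than in other basal cells (limma, 22.5% and 28.8% of rows). The part of such cells in the values of the 6 genes was not tested.

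Endothelial markers were high in Thy-1+ replicate 1 and not in replicate 3, and pericyte markers were also highest in replicate 1. The median of 15 endothelial markers was 2.79, 0.07 and -0.12 in the Thy-1+ arrays, against 0.72, -0.71 and -0.91 in Thy-1- arrays and 2.39, 0.85 and -0.70 in CD24medCD49fmed arrays. Pecam1, which encodes the sorted antigen CD31, read 3.08, 0.04 and -0.43 in the Thy-1+ arrays. Fgl2 was high in the same replicate, at 4.11, and in Thy-1- replicate 1, at 0.61, where the endothelial median was 0.72. In CD24medCD49fmed cells, however, Fgl2 was highest in replicate 3 (0.96), where the endothelial median was -0.70. The median of 7 pericyte markers was 2.35, -0.22 and 0.43 in the Thy-1+ arrays, against -0.58 to 1.06 in the 6 other basal arrays. That of 3 adipocyte markers was 2.00, -0.21 and 0.36, against -0.48 to 1.86. That of 12 fibroblast markers was 0.27, 0.09 and 1.18, against -0.15 to 0.74, with all 3 CD24medCD49fmed arrays at 0.37 or above. Pdgfra, a fibroblast marker whose product CD140α was listed among the study's antibodies, read 0.16, 0.21 and 1.18. The fibroblast markers Col1a1 (2.71, -0.45 and 2.89) and Col1a2 (2.43, -0.03 and 3.49) were high in replicates 1 and 3, as Gatm was. In Thy-1+ minus other basal cells they led their list, at 1.9 and 1.91, or 2.99 and 2.91 without replicate 2. Fbln2 and Fbln1 were its lowest, at -1.47 and -1.04. Over the 9 basal arrays Col1a1 was near Gatm (r = 0.983). Myeloid markers (7 genes) read -0.55, 0.93 and 0.10, against -0.34 to 0.09 in the 6 other basal arrays. Means above those of other basal cells were not particular to Schwann cell markers. Above 0 were 14 of 15 endothelial, 7 of 7 pericyte, 3 of 3 adipocyte, 8 of 12 fibroblast and 5 of 7 myeloid markers. The share over all rows was 1981 of 7190. Thy-1+ replicates 1 and 3 both lay above all 6 other basal arrays for 8 of 13 Schwann cell and 4 of 12 fibroblast markers. They did so for 2 of 7 pericyte, 1 of 7 myeloid, 0 of 15 endothelial and 0 of 3 adipocyte markers, against 7.25% of rows. Basal epithelial markers had 0 of 14 above 0. Without Thy-1+ replicate 1, 2 of 15 endothelial, 5 of 7 pericyte and 2 of 3 adipocyte markers were above 0. Without replicate 3 the fibroblast count was 6 of 12, with a median of -0.02, and the myeloid count was 4 of 7. Gatm and Abca8a were higher in Thy-1+ replicate 3 than in replicate 1, whereas the other 4 genes were lower there. Which of these cell types contributed RNA was not tested, and with centred values no marker can be called absent.

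**Figure D5:**
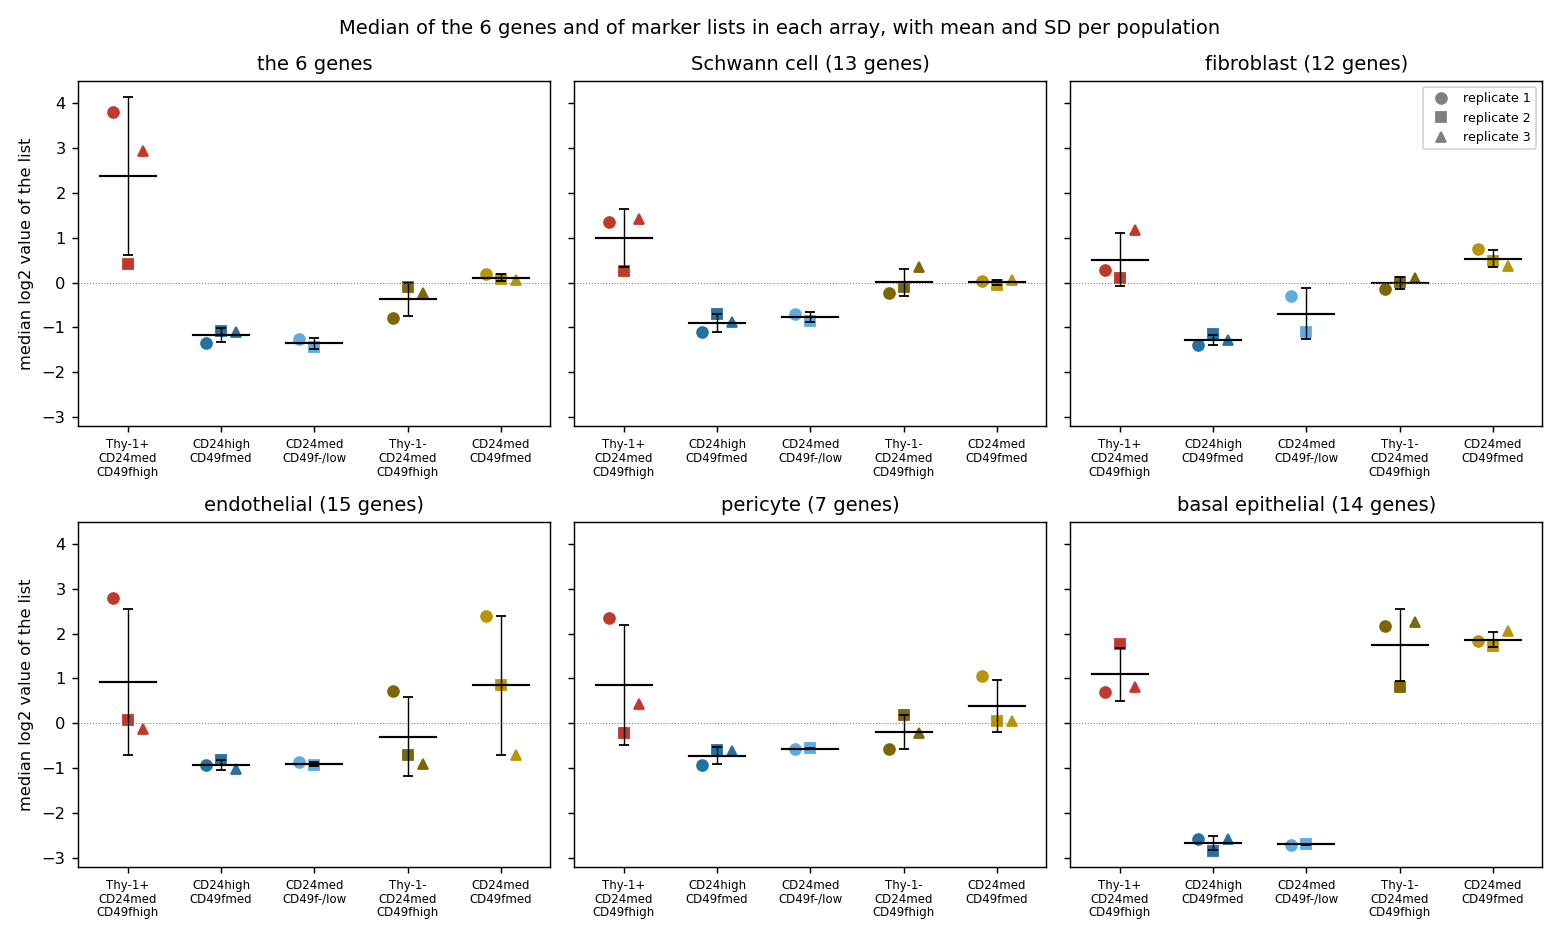
The plot shows the median log2 value of the 6 genes and of 5 marker lists in every array (points, by replicate), with the mean and SD of each population. The Schwann cell list has its highest points in Thy-1+ replicates 1 and 3 (1.34 and 1.41), the endothelial list in replicate 1 of Thy-1+ and of CD24medCD49fmed cells (2.79 and 2.39), and the basal list is low in luminal arrays.

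Each gene was then read beside others of its own pathway. The counts of genes called in luminal against other basal cells are set against the 22.5% of all rows called lower and the 28.8% called higher by limma. Each list's count of lower genes includes its own member of the 6 genes. That member was chosen with its luminal level in view, so its place in the count is a description and not a test. The pathway lists were also chosen with earlier results of these data known. In the sphingosine 1-phosphate pathway, 17 genes were in the table, of which 9 were lower, S1pr3 included, and 3 higher in luminal cells (limma, adjusted p under 0.05). The receptor gene S1pr2 was among the higher, at 1.19 (SE 0.23, limma adjusted p = 0.000718). Sphk1, the kinase that makes the lipid, was -1.53 (SE 0.34, limma adjusted p = 0.00203), and Spns2, its exporter, was 2.00 (SE 0.19, limma adjusted p = 2.68e-06). In Thy-1+ minus other basal cells, 6 of the 17 were above 0, led by S1pr3, against 1981 of 7190 rows. The ceramidase gene Acer2 came next at 1.13, but read 3.36, 0.04 and 0.18 in the Thy-1+ arrays and was 0.05 without replicate 1. Sphk1 was -1.12 (-1.76 to -0.78 without single Thy-1+ arrays) and the phosphatase gene Plpp1 was -1.25 (-1.92 to -0.32). The pathway median was -0.44, close to the -0.46 of all rows.

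Among 21 genes of epithelial-mesenchymal transition, 10 were lower, Zeb2 included, and 5 higher in luminal cells by limma (22.5% and 28.8% of all rows). Snai2 was lower at -4.07 (SE 0.22, limma adjusted p = 2.39e-08), as was Vim at -4.64 (SE 0.16, limma adjusted p = 1.01e-09), and E-cadherin, Cdh1, was higher at 1.24 (SE 0.20, limma adjusted p = 0.000197). The Zeb2 difference of -0.76 was thus a small one in this list. In Thy-1+ minus other basal cells Zeb2 led the list and S100a4 followed at 1.02 (0.85, 0.21 and 2.06 in the Thy-1+ arrays, and 0.51 without replicate 3). In that comparison 7 of 21 were above 0, against 1981 of 7190 rows, and the median was -0.40, close to the -0.46 of all rows. Tgfbr1 was -1.87 (-2.76 to -1.29 without single Thy-1+ arrays).

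Genes of the ABCA transporter and nuclear receptor lists went both ways. Of 5 ABCA transporter genes, Abca8a and Abca1 were lower and Abca3 and Abca5 higher in luminal cells (limma). In Thy-1+ minus other basal cells Abca9 came after Abca8a at 0.83, but read 0.26, 0.00 and 1.75 in the Thy-1+ arrays and was 0.29 without replicate 3. Of 9 nuclear receptor genes, 3 were lower in luminal cells (Nr2f1, Nr3c1 and Nr4a3) and 1, Rora, was higher, against 22.5% and 28.8% of rows. Nr2f2, the closest relative of Nr2f1, was 0.99 in Thy-1+ minus other basal cells and 0.55 without replicate 1.

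Of 13 genes of creatine and arginine metabolism, 6 were lower, Gatm included, and 5 higher in luminal cells, against 22.5% and 28.8% of rows. The creatine transporter gene Slc6a8 was lower at -0.89 (SE 0.35, limma adjusted p = 0.0491) and the creatine kinase gene Ckb at -2.18 (SE 0.32, limma adjusted p = 9.28e-05), while Ckmt1 was higher at 1.53 (SE 0.24, limma adjusted p = 0.00019). Of 14 fibrinogen-domain and coagulation genes, 7 were lower, Fgl2 included, and 4 higher, against the same shares. Fgl1 was higher at 1.17 (SE 0.18, limma adjusted p = 0.000134) and Thbd lower at -2.27 (SE 0.53, limma adjusted p = 0.00334). In Thy-1+ minus other basal cells that last list had 10 of 14 above 0, against 1981 of 7190 rows. Its median was 0.38 (0.23 without replicate 1 and 0.63 without replicate 2), against -0.46 over all rows. Thbd was 1.46 in that comparison and 0.66 without replicate 1. The cause of this shift was not tested.

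Between the luminal populations few genes of these lists were called, and none of the called ones was among the 6 genes. In CD24highCD49fmed minus CD24medCD49f-/low cells, the sphingosine 1-phosphate list had 3 of 17 (limma, 5.59% of rows), with Spns2 at -1.04 (SE 0.20, adjusted p = 0.0269), Plpp3 at -1.04 (SE 0.21, adjusted p = 0.032) and Plpp1 at 1.01 (SE 0.24, adjusted p = 0.0472). Arg2, an arginase, was higher at 1.23 (SE 0.26, limma adjusted p = 0.0332), 1 of 13 in its list, beside the 0.52 of Gatm that did not pass. Fgl1 was higher at 1.12 (SE 0.22, limma adjusted p = 0.0284) and Angpt1 lower at -1.0 (SE 0.19, limma adjusted p = 0.0267), 2 of 14 with Fgl2 at 0.13. The growth factor gene Tgfb3 was lower at -1.14 (SE 0.18, limma adjusted p = 0.0179), 1 of 21, and Nr4a3 at -1.02 (SE 0.23, limma adjusted p = 0.0435), 1 of 9. No ABCA gene passed. Without CD24medCD49f-/low replicate 1, no row of the table passed in this comparison. In Thy-1-CD24medCD49fhigh minus CD24medCD49fmed cells 0 genes of any of the 6 lists passed by limma, as for all rows.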

How the data were processed

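RNA from 14 sorted samples was extracted, amplified and labelled by the manufacturer's amplifying protocol and hybridized to Affymetrix mouse genome arrays. The authors deposited log2 values: after RMA across arrays in MIDAS, Cluster 3.0 dropped probe sets of low signal or under a 4-fold difference between arrays, and each remaining one was centred on its mean. GCRMA is named as well in the submitters' notes. Versions of these tools: not given in the sources used here. Over the table of 9645 probe sets every row mean was 0 and the smallest row range was 2.0. Probe sets with 1 gene symbol (8499) were averaged to 6044 genes, and those with several (199) or none (947) were kept, giving 7190 rows. Because of the centring, dim probe sets could not be filtered and background was not assessed. Averaging probe sets of a gene, each centred on its own mean, gives them equal weight.

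Two-sided tests used lmFit, contrasts.fit and eBayes of limma 3.58.1 (R 4.3.3), with p adjusted over all rows by Benjamini-Hochberg at 0.05. The luminal comparison left out the Thy-1+ arrays. Alternatives were 1 fit of all 14 arrays, median centring or quantile normalization of arrays, each probe set on its own row, a replicate block, rank products (100 permutations, p under 0.01) and leaving out each array, in Python 3.11.15. Scripts were tested on simulated data. Thy-1+ against other basal cells chose the genes, with their luminal level in view, so for the 6 genes neither comparison is given as a test. Leaving out each Thy-1+ array for marker and pathway lists was chosen after seeing the data. Named genes were the 6 genes with all their probe sets, Thy1, the genes nearest by Pearson's r, and members of fixed pathway and marker lists that were called, or had the 2 largest differences each way in Thy-1+ cells. Further marker genes (Krt5, Krt14, Mbp, Pecam1, Pdgfra) were named after their values were seen. The members and the lists were chosen with earlier results of these data known. The number of arrays limits the precision. Replicate numbers come from the sample titles. Same-numbered arrays of Thy-1- and CD24medCD49fmed cells deviated together from their group means (r = 0.374, 0.328 and 0.558 for replicates 1, 2 and 3). So did those of Thy-1+ and CD24medCD49fmed cells (0.388, 0.391 and 0.386). Those of Thy-1+ and Thy-1- cells did so weakly in replicate 3 and not in replicates 1 and 2 (-0.002, -0.160 and 0.245). The remaining pairs of populations ran between -0.029 and 0.296. The labels call CD24medCD49fmed what the study's text calls CD24lowCD49fmed. Some genes are not reported here.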

Additional observations from a re-analysis of the deposited data

Results flagged for a closer look

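In 12 groups of 5 or 6 arrays tested for a single distant array, 2 were flagged, both for S1pr3, and chance flags about 1 in 20 groups. Among the 5 luminal arrays, CD24highCD49fmed replicate 3 was the highest at -1.33, and its gap to the next array took 0.725 of the whole range. Among the 6 arrays of the other basal populations, Thy-1-CD24medCD49fhigh replicate 1 was the lowest at -0.74, with 0.665 of the range. Both groups pool 2 populations. The same Thy-1- array was also the lowest of these 6 for Abca8a (-1.65), Zeb2 (-0.91) and Gatm (-0.85), and the second highest for Fgl2 (0.61).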

How the results depend on the processing

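The count of the 6 genes past the threshold in luminal minus other basal cells, from which nothing is read, was 6, was 2 with all 14 arrays in 1 fit and 2 by rank products, and ran between 4 and 6 when single arrays were left out. Quantile normalization left 4. In Thy-1-CD24medCD49fhigh minus CD24medCD49fmed cells rank products called 1, against 0. With the replicate block all 6 of luminal minus other basal cells stayed past it, and no call changed elsewhere. The block turned S1pr3 in CD24highCD49fmed minus CD24medCD49f-/low cells to -0.01. Centring each array on its median turned that value to -0.08 and that of Fgl2 to -0.04. Without single arrays it ran between -0.01 and 0.16 for S1pr3 and between -0.08 and 0.35 for Fgl2. In Thy-1- minus CD24medCD49fmed cells Abca8a ran between -0.34 and 0.98, S1pr3 between -0.53 and 0.07 and Nr2f1 between -0.13 and 0.31. None of these had passed the test, and the cause was not tested. The median difference of the 6 genes in Thy-1+ minus other basal cells ran between 1.97 and 3.48, the highest without Thy-1+ replicate 2. Over all rows of CD24highCD49fmed minus CD24medCD49f-/low cells, 46.0% of calls were lower, against 69.6% with median centring and 64.1% with quantile normalization. These were 402 calls (217 higher, 185 lower), with 507 higher and 322 lower under the replicate block, 3 higher and 1 lower with all 14 arrays in 1 fit, and 0 without CD24medCD49f-/low replicate 1. Signal over background was not available from centred values, so the part of dim probe sets is unknown.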
